A study of Mus musculus with 2 samples.

Results

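The genes described here belong to 15 families of transcription factors that pattern embryonic tissues and are used again in adult skin: Fox, Sox, Gata, Dlx, Msx, Tbx, Irx, Pax, Lhx, Klf, Barx, Runx, Grhl, Twist and the sine oculis family. Hoxc13 was added as the only Hox gene. The rule picks members by symbol and uses no measured value, but the families were proposed with earlier results of these data known, and each member had to be among the genes that the authors listed. The authors' table of 4183 rows held 51 such genes. A further 2 symbols, Runx1t1 and Tbxas1, begin like a family name but do not have its form and were left out. RefSeq (GRCm38.p6) annotates all 51 as protein-coding genes.

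RNA was measured in dorsal skin of C57BL/6 mice aged 18 to 20 months. One group received no treatment, and the other received red light at 8 J/cm² once a day for 28 days. GEO describes 2 samples, 1 per group, and the values are the authors' mean FPKM of each group (fragments scaled to transcript length and library size, a scale that allows levels of different genes to be compared). No spread between animals accompanies these means, so no test was possible and no p-value is given. Whether a difference exceeds the variation between mice is therefore unknown for every gene. The labels do not state how many mice stand behind each mean, and depth is unknown because the table holds no counts. Markers of epidermis and dermal fibroblasts were present in both groups.

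Hair follicles pass through repeated rounds of growth and rest. In a growing follicle, dividing matrix cells at the base produce the hair shaft and the inner root sheath under the direction of homeobox, forkhead and GATA factors, while SOX9, LHX2 and RUNX1 act in the stem cells and outer root sheath. In the epidermis between follicles, KLF4 and the grainyhead factors direct the formation of the barrier. TWIST1, TBX15 and related factors mark the mesenchyme of the dermis, and other family members serve vessels, nerve, muscle and blood cells.

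Of the 51 members, 26 were higher and 25 lower after red light by the authors' means. Among all listed genes 38.7% were higher and 61.3% lower. The authors' label gave the same direction for all 51 members, and by that label 38.6% of all listed genes were higher. Every listed member differed by at least about 2-fold, the ones nearest to equality being Foxo6, 2.05-fold higher, and Runx3, 2.02-fold lower. A family gene outside the table says nothing about its change. RefSeq holds 148 protein-coding genes with these family names, of which 34.5% were listed, against 18.6% of all its 21896 protein-coding genes. Because the families were proposed with earlier results of these data known, this comparison is a description only.

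The differences of the higher members were larger than those of the lower ones. The higher members had a median difference of 4.74-fold and the lower members of 2.97-fold, while the corresponding medians over all listed genes were 3.73-fold and 3.09-fold. A difference of at least 4-fold was present in 17 higher members, where 18.2% of all listed genes were at least 4-fold higher, and in 7 lower members, where 18.9% were at least 4-fold lower. The median log2 ratio over all members was 1.04, against −1.21 over all listed genes. With nearly equal numbers on each side this median sits at the edge of an empty range, and without Hoxc13 it was 0.01, so the 2 sides are described separately. Adding 1 FPKM to both means, a pseudocount that pulls low genes towards equality, left 23 higher and 13 lower members with a log2 ratio of at least 1. Summed over all members, the level was 609 FPKM in untreated and 925 FPKM in red light skin. The 26 higher members went together from 146 to 772 FPKM, and the 25 lower ones from 463 to 153 FPKM.

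**Figure D1:**
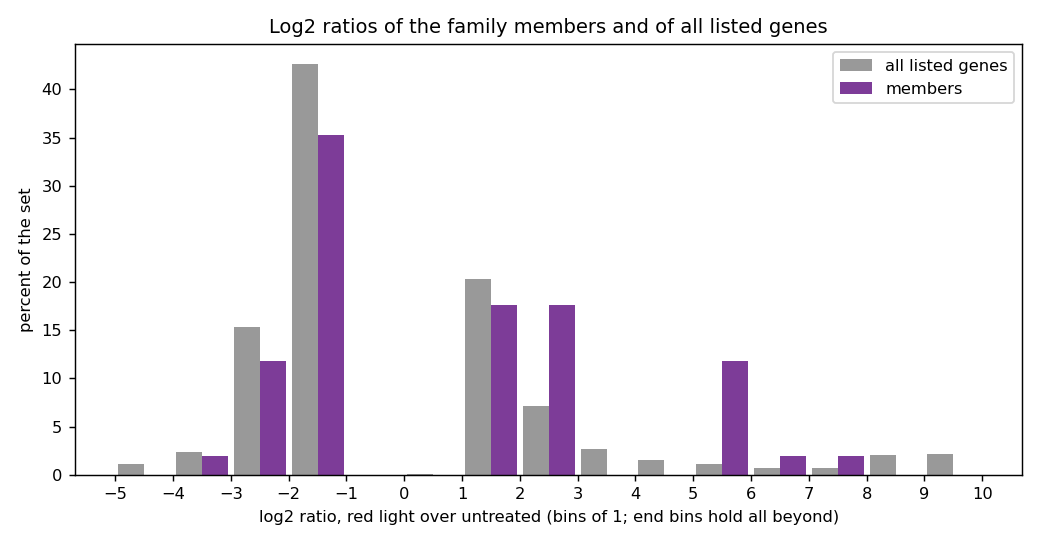
Distribution of the log2 ratio of red light to untreated mean FPKM in bins of 1, as percent of the 51 family members (purple) and of all 4183 listed rows (grey). The members form 3 groups: 25 lower genes, 18 genes with a log2 ratio between 1 and 3, and 8 genes above 5, with none between 3 and 5.

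No member had a log2 ratio between 3 and 5, a range with few listed genes: 2.73% lay from 3 to 4 and 1.51% from 4 to 5. A log2 ratio above 5 was present in 8 members, or 15.7% of them against 6.84% of all listed genes. These 8 genes, Foxe1, Msx2, Hoxc13, Dlx2, Foxn1, Dlx4, Dlx1 and Dlx3, all belonged to the role list for hair matrix, shaft and inner root sheath. That list was drawn up with earlier results of these data known.

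RefSeq promoter sequences (GRCm38.p6) were found for 31 of the 51 members. The 250 bases before the start are shown for the 3 members with the highest and the 3 with the lowest ratio among those that had a promoter sequence and reached 1 FPKM in either group, to set promoters of genes with opposite differences side by side. Capitals mark any of 11 short motifs searched on both strands: forkhead factors by TGTTTAC, SOX factors by ACAAAG or by ACAATG, zinc finger factors of the GATA family by AGATAA, homeodomain factors by TAATTG, RUNX factors by TGTGGT, Krüppel-like factors by CCACACCC, grainyhead factors by AACCGGTT, LEF/TCF factors by TCAAAG, E2F factors by TTTCCCGC and the TATA box by the letters TATAAA. The LEF/TCF letters and the first SOX letters share CAAAG. The higher genes are Msx2 (chr13:53472781-53473030, minus strand), Dlx2 (chr2:71546755-71547004, minus strand) and Foxn1 (chr11:78386609-78386858, minus strand). The lower genes are Klf2 (chr8:72318812-72319061, plus strand), Klf9 (chr19:23140976-23141225, plus strand) and Foxd3 (chr4:99656049-99656298, plus strand).
Msx2: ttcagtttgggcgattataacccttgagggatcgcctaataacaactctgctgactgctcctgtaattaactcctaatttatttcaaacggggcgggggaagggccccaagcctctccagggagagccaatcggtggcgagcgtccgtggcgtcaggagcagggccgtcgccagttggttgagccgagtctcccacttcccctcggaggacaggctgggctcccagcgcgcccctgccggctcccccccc
Dlx2: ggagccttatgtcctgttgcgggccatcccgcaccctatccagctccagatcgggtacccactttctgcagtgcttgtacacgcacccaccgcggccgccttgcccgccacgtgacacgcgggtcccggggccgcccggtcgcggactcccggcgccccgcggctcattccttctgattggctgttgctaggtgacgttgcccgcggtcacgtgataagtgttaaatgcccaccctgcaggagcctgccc
Foxn1: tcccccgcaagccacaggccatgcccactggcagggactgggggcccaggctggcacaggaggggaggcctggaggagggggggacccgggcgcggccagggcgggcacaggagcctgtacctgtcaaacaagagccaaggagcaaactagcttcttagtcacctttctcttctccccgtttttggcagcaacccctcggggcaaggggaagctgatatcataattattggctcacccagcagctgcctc
Klf2: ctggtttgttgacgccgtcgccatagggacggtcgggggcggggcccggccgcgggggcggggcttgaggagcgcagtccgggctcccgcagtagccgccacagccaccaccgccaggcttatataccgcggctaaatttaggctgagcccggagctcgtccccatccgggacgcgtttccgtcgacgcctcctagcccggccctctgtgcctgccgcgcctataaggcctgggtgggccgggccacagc
Klf9: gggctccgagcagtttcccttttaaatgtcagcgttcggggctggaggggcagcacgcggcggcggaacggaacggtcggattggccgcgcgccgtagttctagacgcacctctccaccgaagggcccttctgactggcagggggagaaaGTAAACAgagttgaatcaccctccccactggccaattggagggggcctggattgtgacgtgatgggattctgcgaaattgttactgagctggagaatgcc
Foxd3: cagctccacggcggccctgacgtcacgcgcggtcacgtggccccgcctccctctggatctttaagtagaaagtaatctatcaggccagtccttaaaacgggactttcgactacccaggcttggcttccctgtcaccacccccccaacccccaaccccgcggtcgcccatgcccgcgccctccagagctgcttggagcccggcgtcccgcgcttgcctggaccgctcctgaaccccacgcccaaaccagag

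Only the Klf9 sequence held one of these motifs, a FOX match 100 bases before the start. The stretches from Msx2, Dlx2 and Foxn1 were 61.6%, 66.4% and 63.2% G and C and held 16, 24 and 7 CG pairs. Those from Klf2, Klf9 and Foxd3 were 71.2%, 59.6% and 65.6% G and C, with 29, 18 and 21 CG pairs. Foxn1 had the fewest CG pairs of the 6, and Klf2 the most.

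Over the full 300 bases of the table (250 before and 50 after the start), the 31 members had a median of 65.7% G and C, against 57% for 3139 listed genes and 52.8% for 27025 genes with a promoter sequence. The 16 higher and 15 lower members had medians of 66.0% and 65.7%, and their ranges, 39.7% to 75% and 45.3% to 77.7%, overlapped. Most of the letters searched are rich in A and T, and the part of base composition in the shares that follow was not tested. FOX letters were found in 0 of 16 higher and 1 of 15 lower members, against 4.05% of all 27025 genes with a promoter sequence. Homeodomain letters were found in 0 and 1, against 9.22%, and GATA letters in 0 and 1, against 12.7%. RUNX letters were present in 2 higher and 3 lower members, against 18.9%, among them Runx1 and Runx3 themselves. KLF letters occurred in 0 higher and 3 lower members (Klf12, Sox15 and Sox6), against 4.09%, and TATA letters in 0 and 3 (Klf12, Sox6 and Twist1), against 15.7%. The first SOX motif was found in 1 higher and 2 lower members, against 21.0%, the second in 1 and 1, against 14.3%, and the LEF/TCF motif in 1 and 2, against 18.2%. GRHL letters, at 0.174%, and E2F letters, at 1.24%, were found in no member. Sox6 was entered with 6 starts, so it had more sequence to match than the others. A match is only a match of letters.

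**Figure D2:**
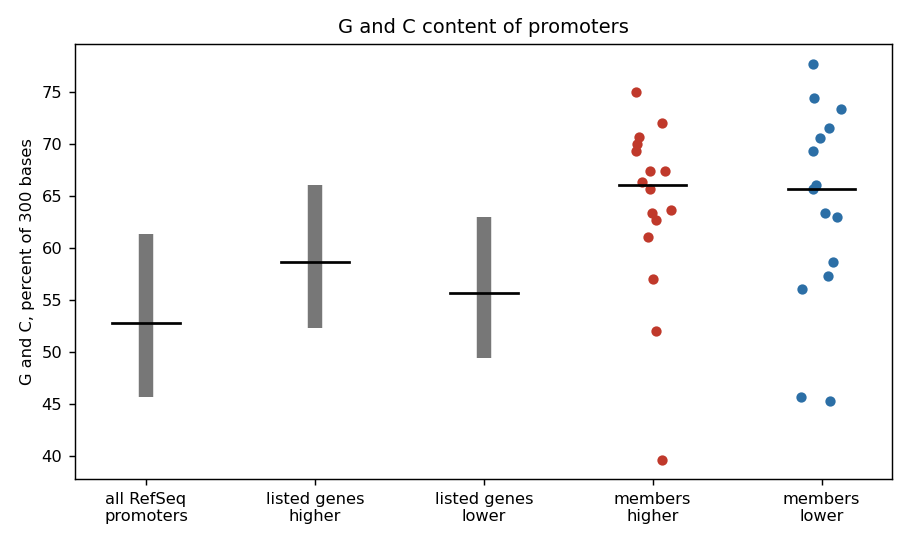
Percent of G and C in the 300 bases around the start (250 before, 50 after), averaged over the starts of a gene. Grey bars span the first to the third quartile of all RefSeq promoters and of listed genes, points are the 16 higher and 15 lower members, and black lines are medians: 66.0% for higher and 65.7% for lower members, against 52.8% for all promoters.

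Homeobox factors of the hair matrix made up 6 of the 8 members with a log2 ratio above 5. Dlx3, a regulator of matrix, shaft and inner root sheath, went from 4.92 FPKM in untreated to 171 FPKM in red light skin, 34.9-fold. Msx2, which acts in matrix and shaft formation, went from 0.883 to 64.4 FPKM, 72.9-fold. Hoxc13, which controls hair keratin genes and is needed for a normal hair shaft, went from 0.967 to 61.8 FPKM, 63.97-fold. In red light skin Msx2 and Hoxc13 stood at percentiles 91.9 and 91.5 of the levels of all listed genes, and Dlx3 at 96.5. Dlx2 went from 0.14 to 8.45 FPKM, Dlx4 from 0.1 to 4.39 FPKM and Dlx1 from 0.0567 to 2.16 FPKM. The folds of these 3 Dlx genes, 60.4, 43.9 and 38.1, rest on untreated levels near 0.1 FPKM or lower. Msx1, a partner of Msx2 in many developing organs, had a smaller difference, 6.16-fold, from 1.48 to 9.12 FPKM. Barx2, a homeobox factor of the follicle, was already at 22.7 FPKM in untreated skin and stood at 49.6 FPKM after red light.

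Forkhead genes of the follicle were higher as well. Foxn1, the gene mutated in nude mice and a driver of shaft differentiation, went from 0.8 to 45.1 FPKM, 56.3-fold. Foxe1, known in thyroid and hair follicle development, had the largest ratio of any member, 187-fold, from 0.113 to 21.2 FPKM. Foxq1, the gene altered in satin mice and required for the hair medulla, went from 3.12 to 13.5 FPKM, 4.33-fold. Among the remaining genes of the list, Gata3, which directs the inner root sheath, stood at 14.2 and 35.9 FPKM, 2.52-fold higher. Gata3 is also a T cell factor, and all 13 listed T and NK cell markers were lower, their sum going from 36.8 to 9.80 FPKM. By comparison, 61.3% of all listed genes were lower. What part any cell type had in the level of Gata3 was not tested. Sox21, needed for the cuticle of the hair shaft, stood at 5.18 and 17.4 FPKM, 3.36-fold higher.

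Drawn up with earlier results of these data known, the role lists place Dlx5, the lower gene of the Dlx family, under mesenchyme. Their counts are therefore a description and no independent support. Of the 14 genes of the list for hair matrix, shaft and inner root sheath, 13 were in the table. All 13 were higher, with a median of 38.1-fold, against 38.7% higher among all listed genes. On the log2 scale this median was 5.25, and 2.29 with a pseudocount of 1. Their summed level was 54.7 FPKM in untreated and 504 FPKM in red light skin, which was 8.98% and 54.5% of the FPKM of all members. In the same table, all 16 listed markers of hair matrix and shaft were higher, from a sum of 31.4 to 8611 FPKM. All 11 listed markers of the inner root sheath and companion layer were also higher, from 60.8 to 16218 FPKM. None of these markers was at 0 in either group. Skin holds many cell types, and more cells of a type cannot be told apart here from more RNA per cell.

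Factors of the follicle stem cells and outer root sheath were higher in 6 of 6 listed cases, with a median of 4.57-fold. Among all listed genes 38.7% were higher. This list, too, was drawn up with earlier results of these data known. Lhx2, which maintains follicle stem cells, went from 2.997 to 20.4 FPKM, 6.80-fold. Tbx1, which supports stem cell self-renewal, went from 5.31 to 29.4 FPKM, 5.53-fold. Sox4, a factor of progenitor cells, stood at 3.53 and 17.8 FPKM, 5.06-fold higher. Sox9, which specifies the outer root sheath and its stem cells, stood at 5.44 and 22.5 FPKM, 4.13-fold higher. Foxc1, which keeps stem cells at rest, stood at 3.71 and 11.3 FPKM, 3.04-fold higher. Runx1, which promotes their activation, stood at 5.17 and 13.0 FPKM, 2.52-fold higher. All 6 were between 2.997 and 5.44 FPKM in untreated skin, a narrow range compared with that of the matrix genes. Foxm1, the forkhead factor of mitotic genes, was 4.43-fold higher, from 1.503 to 6.65 FPKM, beside 12 of 12 higher markers of dividing cells, whose sum went from 29.4 to 136 FPKM.

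**Figure D3:**
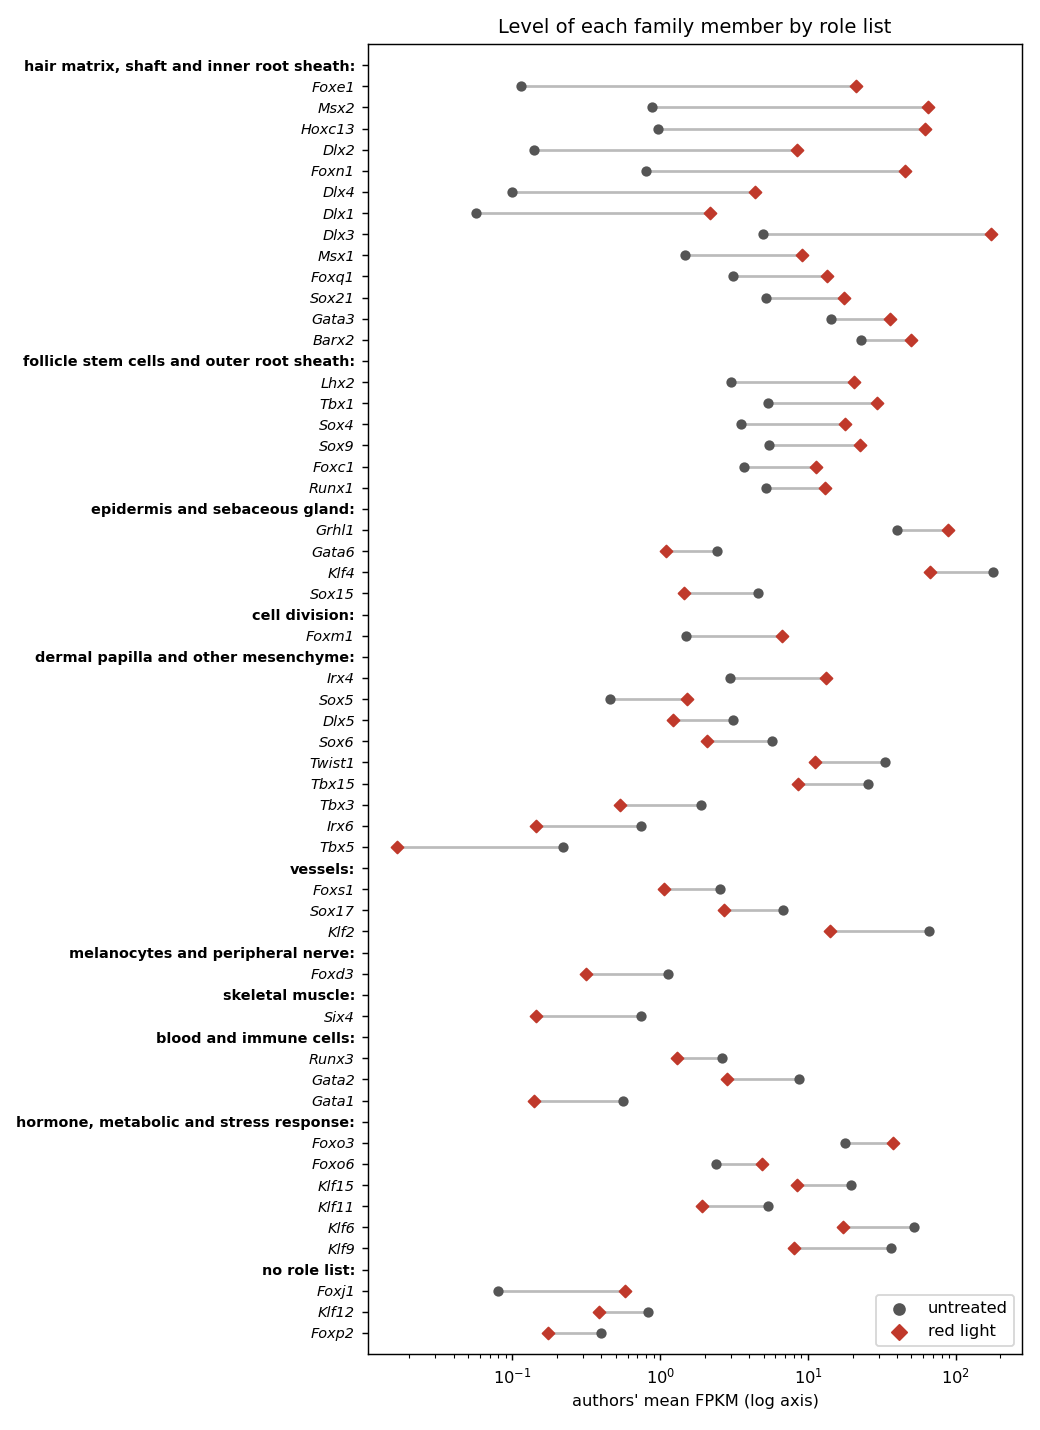
Mean FPKM of 50 of the 51 members in untreated (grey circles) and red light skin (red diamonds) on a log axis, grouped by role list and ordered by ratio within each list, with 1 mean per group and no error. All 13 genes of the hair matrix list and all 6 of the stem cell list lie higher after red light, while the lists for vessels, skeletal muscle and blood and immune cells hold only lower genes.

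Epidermal and sebaceous factors went both ways. Klf4, which directs barrier formation in the upper epidermis, was the most abundant member in untreated skin at 177 FPKM and stood at 66.6 FPKM after red light, 2.66-fold lower. Grhl1, a grainyhead factor that controls desmosomal cadherins and anchors hair, was 2.22-fold higher, from 40.03 to 88.9 FPKM. Gata6, a factor of the sebaceous duct, was at 2.42 and 1.09 FPKM and Sox15, a factor of stratified epithelia also known from mouse muscle regeneration, at 4.56 and 1.44 FPKM, both lower after red light. Of the listed markers of the epidermis between follicles, 5 of 7 were lower, with a sum of 3832 FPKM in untreated and 1080 FPKM in red light skin. Among all listed genes 61.3% were lower. All 5 listed sebocyte markers were lower, from a sum of 406 to 97.6 FPKM. The part of these markers' cells in the lower levels of Klf4, Gata6 and Sox15 was not tested.

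Most listed mesenchymal factors were lower, 7 of 9, with a median log2 ratio of −1.57, or −0.89 with a pseudocount of 1. Among all listed genes 61.3% were lower and the median was −1.21, so this count and median are close to those of the whole table. Twist1, a basic helix-loop-helix factor of mesenchymal cells, went from 33.2 to 11.2 FPKM, 2.97-fold lower. Tbx15, which sets the boundary between back and belly coat in the mouse, went from 25.5 to 8.59 FPKM and was also 2.97-fold lower. Sox6, a factor of cartilage, muscle fibres and red cells, stood at 5.71 and 2.05 FPKM. Dlx5, a regulator of bone formation, stood at 3.09 and 1.21 FPKM, and Tbx3, a limb and mammary gland factor, at 1.90 and 0.533 FPKM. Irx6 was at 0.74 and 0.143 FPKM. Tbx5, the forelimb and heart factor, had the largest ratio among the lower members, 13.2-fold, but at levels of only 0.22 and 0.0167 FPKM.

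The 2 higher genes of the mesenchymal list were Irx4, best known from the heart ventricle, and Sox5, a cartilage factor also known in melanocytes. Irx4 went from 2.97 to 13.1 FPKM, 4.43-fold, and Sox5 from 0.457 to 1.52 FPKM, 3.33-fold. All 8 listed dermal fibroblast markers were lower, from a sum of 1467 to 509 FPKM. Dermal papilla markers did not follow them, with 4 of 6 higher, against 38.7% of all listed genes. Their sum was 19.7 FPKM in untreated and 34.95 FPKM in red light skin. All 8 listed melanocyte markers were higher, from 8.79 to 152 FPKM. What part these cell types had in the levels of the mesenchymal list was not tested.

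The 8 factors of vessels, melanocytes and nerve, muscle and blood cells described here were all lower, as were 61.3% of all listed genes. Klf2, which endothelial cells express under flow, went from 65.3 to 14.1 FPKM, 4.64-fold lower. Sox17, an endothelial factor, stood at 6.79 and 2.69 FPKM, and Foxs1, a factor of pericytes, at 2.55 and 1.06 FPKM. Beside these, all 13 listed endothelial markers were lower, from a sum of 323 to 115 FPKM. Six4, which acts in skeletal muscle development, went from 0.743 to 0.143 FPKM, 5.19-fold lower. All 31 listed muscle markers were lower too, from 22564 to 3899 FPKM. Foxd3, a neural crest factor, stood at 1.13 and 0.313 FPKM, beside 8 of 8 lower Schwann cell markers (275 and 48.7 FPKM) and 8 of 8 higher melanocyte markers (8.79 and 152 FPKM).

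The blood cell factors were Gata2, Gata1 and Runx3. Gata2, which acts in blood progenitors and mast cells, went from 8.62 to 2.82 FPKM, 3.06-fold lower. Gata1, a factor of red cells and mast cells, was at 0.563 and 0.14 FPKM. Runx3, which acts in cytotoxic T cells and Langerhans cells, was at 2.60 and 1.29 FPKM. All 8 listed mast cell markers were lower, from 330 to 111 FPKM, as were all 9 macrophage markers, from 1619 to 656 FPKM, and all 4 B and plasma cell markers, from 36.05 to 7.25 FPKM. By comparison, 61.3% of all listed genes were lower. Their median log2 ratio was −1.21, close to the −1.16 of the macrophage markers. No marker of these lists was at 0 in either group. What part vessel, melanocyte, nerve, muscle and blood cells had in the lower levels of their factors was not tested.

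Among factors of hormone, metabolic and stress response, the 4 Klf genes were lower and the 2 Foxo genes higher, where 61.3% of all listed genes were lower. Klf9, which glucocorticoids and the circadian clock control, went from 36.2 to 7.99 FPKM, 4.53-fold lower. Klf6, a factor induced by injury, went from 51.7 to 17.3 FPKM, 2.99-fold lower. Klf15, a glucocorticoid target in muscle and other tissues, stood at 19.5 and 8.45 FPKM, and Klf11, a TGF-beta-induced factor, at 5.39 and 1.91 FPKM. Foxo3, a forkhead factor restrained by insulin signalling, was 2.12-fold higher, at 17.8 and 37.8 FPKM. Its relative Foxo6 stood at 2.38 and 4.89 FPKM. The hour of sampling, on which clock-controlled genes depend, is not stated in the labels.

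The 3 members in no role list were low in both groups. Foxj1, the regulator of motile cilia, was at 0.08 and 0.58 FPKM, Klf12, a repressor, at 0.82 and 0.387 FPKM, and Foxp2, best known from the brain, at 0.4 and 0.173 FPKM. Altogether 7 members were under 1 FPKM in both groups, namely these 3, Gata1, Irx6, Six4 and Tbx5. A further 8 members were under 1 FPKM in untreated skin only (Dlx1, Dlx2, Dlx4, Foxe1, Foxn1, Hoxc13, Msx2 and Sox5), and 2 in red light skin only (Foxd3 and Tbx3). The other 34 members reached 1 FPKM in both groups, and of these 17 were higher and 17 lower.

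**Figure D4:**
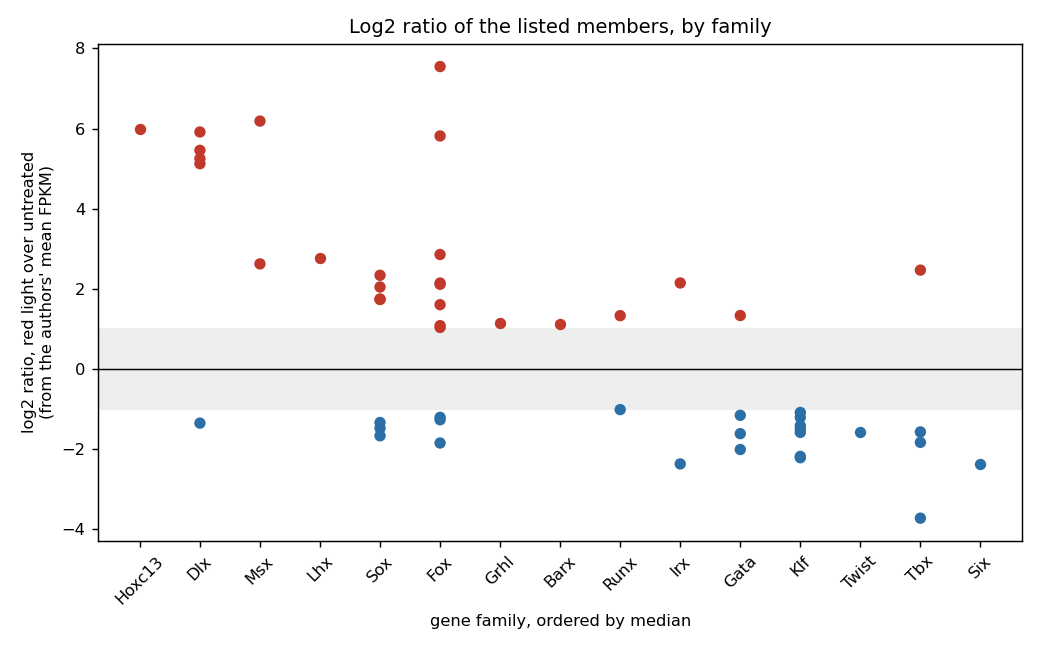
Log2 ratio of red light to untreated mean FPKM for 50 of the 51 listed members, by family, with families ordered by their median. Red points are higher and blue points lower members, and no point lies in the grey band between −1 and 1, which holds only 4 of all listed genes. All 7 Klf genes lie below the band, and 7 families have members on both sides.

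Of 10 families with at least 2 listed members, 7 had members on both sides. With 38.7% of all listed genes higher and 61.3% lower, sets of unrelated genes would often be mixed too. The count is therefore no trait of these families. All 7 listed Klf genes, of 17 in RefSeq, were lower, with a median of 2.83-fold, while 61.3% of all listed genes were lower, with a median difference of 3.09-fold. Msx1 and Msx2 were both higher. The Fox family had 8 higher and 3 lower genes among 11 listed of 44 in RefSeq, and the Sox family 4 higher and 3 lower among 7 of 19. In the Dlx family 4 of 5 were higher, the exception being Dlx5. The level of Dlx3 was 1.59 times that of Dlx5 in untreated skin and 141 times in red light skin. Gata3 was higher while Gata1, Gata2 and Gata6 were lower, and its level relative to Gata2 went from 1.65 to 12.7. Runx1 was higher and Runx3 lower, and the ratio of their levels went from 1.99 to 10.1. Tbx1 was the only higher gene of 4 in its family; its level was 0.208 of that of Tbx15 in untreated skin and 3.42 times that level after red light. Irx4 was higher and Irx6 lower. A ratio between a higher and a lower member had to change, because each listed member differed by at least about 2-fold. Lhx2, Barx2, Grhl1 and Twist1 were the only listed genes of their families, and no Pax gene was listed.

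The order of levels among the members differed between the groups. Each listed member differed by at least about 2-fold in 1 direction or the other, so shifts in order, share and ratio were largely built in. Family genes outside the table are missing from these orders and shares. In untreated skin the highest levels were those of Klf4 (177 FPKM), Klf2 (65.3 FPKM), Klf6 (51.7 FPKM) and Grhl1 (40.03 FPKM), and 5 of the 10 highest members were Klf genes. In red light skin the highest were Dlx3 (171 FPKM), Grhl1 (88.9 FPKM), Klf4 (66.6 FPKM) and Msx2 (64.4 FPKM), and 6 of the 10 highest came from the hair matrix list. The 10 highest members of both groups had 4 genes in common, Klf4, Grhl1, Barx2 and Foxo3. Klf genes made up 58.5% of the FPKM of all members in untreated and 12.6% in red light skin, and Dlx genes 1.36% and 20.3%. Dlx3 stood at 0.0277 of the level of Klf4 in untreated skin and at 2.57 times its level after red light. With only 1 mean per group it is not known which neighbours in these orders differ beyond the spread between mice.

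In RefSeq gene order 4 pairs of the members named here are direct neighbours among protein-coding genes. In 3 of them, Dlx1 with Dlx2, Dlx3 with Dlx4 and Tbx3 with Tbx5, both genes come from 1 family and had the same direction. The levels within these pairs were unlike: Dlx3 reached 171 FPKM and Dlx4 4.39 FPKM in red light skin. The remaining pair, Grhl1 and Klf11, had opposite directions. With 38.7% of all listed genes higher and 61.3% lower, many unrelated pairs would share a direction as well. How often neighbours share a direction over all listed genes was not counted, so these 4 pairs are a description only.

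Transcription regulators outside these families were compared in 3 lists. Of 22 other regulators of the follicle, 15 were listed, 13 of them higher and 2 lower, with a median of 3.44-fold higher. Among all listed genes 38.7% were higher. Mycn, a proliferation factor of matrix cells, went from 0.247 to 10.8 FPKM, 43.7-fold. Lef1, the WNT-responsive factor of the matrix, stood at 0.813 and 19.8 FPKM. Myb went from 0.373 to 3.62 FPKM and Heyl, a Notch target, from 1.76 to 12.5 FPKM. Zic1 and Nfatc1 were the 2 lower genes, named after their values were seen. Nfatc1, which keeps follicle stem cells at rest, stood at 20.8 and 6.08 FPKM.

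Of 22 other regulators of the epidermis and sebaceous gland, 6 were listed and 5 of them were higher, as were 38.7% of all listed genes. Elf5, an epithelial factor best known from the mammary gland, went from 1.94 to 44.9 FPKM, 23.1-fold. Tfap2b and Tfap2a, AP-2 factors of epidermal development, were 3.66-fold and 3.41-fold higher. Of 30 other regulators of mesenchyme, 13 were listed, 12 of them lower, with a median log2 ratio of −1.44. This median is close to that of −1.21 over all listed genes, of which 61.3% were lower. Osr2 went from 16.9 to 3.15 FPKM, 5.35-fold lower, Meox2 from 8.01 to 2.34 FPKM and Nr2f2, which venous endothelium also uses, from 7.46 to 2.23 FPKM. The 1 higher gene was Snai2, which epithelial progenitors also express, at 2.83 and 9.49 FPKM.

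**Figure D5:**
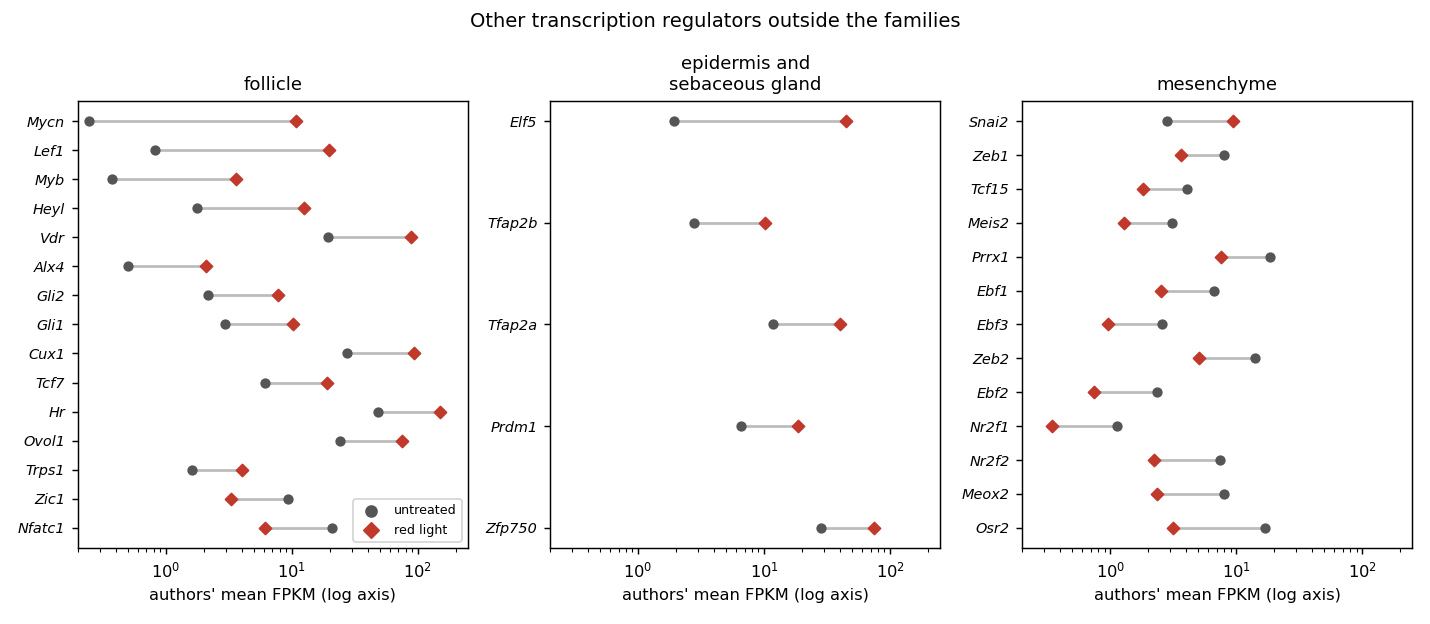
Mean FPKM of the listed transcription regulators outside the families in untreated (grey circles) and red light skin (red diamonds), on log axes, in 3 lists, with 1 mean per group. In the follicle list 13 of 15 genes lie higher after red light, in the epidermis and sebaceous gland list all 5 plotted of 6 listed, and in the mesenchyme list 1 of 13. Among all listed genes 38.7% were higher.

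On the FPKM scale a gene's value depends on the RNA of every other gene in the library. A list of 79 hair structural genes took 0.176% of the FPKM of all listed genes in untreated and 40.0% in red light skin. Red light values were rescaled so that listed genes outside that list had the same sum in both groups. Every log2 ratio then rose by 0.34. All 51 members kept their direction, which was fixed in advance, because each differed by at least about 2-fold and the shift is smaller. At that scaling 26 higher and 18 lower members still differed by at least 2-fold. Only the count of lower members could change, as an upward shift cannot take a higher member below 2-fold.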

How the data were processed

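The authors deposited a table of mean FPKM per group with an UP or DOWN label, per the file headers. Named in the submitters' processing notes, with no role stated, are DESeq2 1.40.2 and R 4.3.1 as well as RSEM and Bowtie2 2.2.8. Per the labels' protocols, polyadenylated RNA was selected from Trizol extracts. The build, the number of libraries behind each mean and the criteria for listing are not given in the sources used here. Strand-specific counting is not stated, so reads of overlapping antisense genes cannot be told apart. Depth is unknown.

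Ratios are red light over untreated without a pseudocount; no member was at 0 in either group. The members, the 10 role, 3 partner and 15 marker lists, and the motifs were chosen with earlier results of these data known. The rule was to name every member and, of each partner list, the 4 genes with the largest ratio and at least 1 FPKM in either group; 1 member and 1 partner gene are counted but not reported here by name or plotted. Role lists rest on textbook knowledge. With only 1 mean per group no test was made. Promoters came from RefSeq (GRCm38.p6) by symbol. Alternatives were 2 pseudocounts, an FPKM minimum, a stricter fold, 2 rescalings, the authors' label, a looser symbol rule and a shorter promoter window. Ratio and motif code was tested on simulated data. Python 3.11.15, numpy 2.4.6, pandas 2.3.3 and matplotlib 3.10.9 were used.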

Additional observations from a re-analysis of the deposited data

How the results depend on the processing

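All 51 members kept their direction under the authors' label and both rescalings. A pseudocount cannot turn a direction. Nor could the rescalings, whose shifts of 0.34 and 0.11 are too small for genes that differ by at least about 2-fold. At a fold of at least 4, 17 members were higher and 7 lower, since the limit removes genes. Requiring a log2 ratio of at least 1 after adding 1 FPKM to both means left 23 higher and 13 lower members. The other counts moved by less than 1.5-fold, including 18 lower members at 2-fold after rescaling, an alternative chosen after seeing the data. A pseudocount of 1 moved the median log2 ratio of the hair matrix list from 5.25 to 2.29 (4.49 with 0.1), of the mesenchymal list from −1.57 to −0.89 and of the blood and immune list from −1.61 to −0.65, and moved 19 of 51 single genes by over 1.5-fold, for example Tbx5 from −3.72 to −0.26 and Foxe1 from 7.55 to 4.32. Rescaling without hair and muscle genes shifted every log2 ratio by 0.11. In the 150 bases nearest the start, 5 of 11 motif counts moved. No replicate could be left out, as the values are means of groups. No paired analysis was possible because a gene has only its mean in a group. Without counts, the counting error in the 7 members under 1 FPKM in both groups is not known.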
